A study of Arabidopsis thaliana with 12 samples.

Results

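Unstressed roots of the agb1-3 mutant (agb1) were compared with those of the wild type Col-0 (WT), both taken at 0 h of 150 mM NaCl. The members were the 3 arrays labelled agb1-3 at 0 h and the 3 arrays labelled Col-0 at 0 h, which are 6 of the 12 arrays of the series. The other 6 arrays hold agb1 and WT roots after 4 h in the same salt medium, and all 12 came from roots cut from seedlings grown for 7 d on agar plates. In the labels the control is 0 h of salt, whereas the Methods describe it as medium without salt for as long as the salt treatment, so the wording "before salt" follows the labels. agb1-3 is a single mutant allele, described as a null, and no complemented line was on these arrays.

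AGB1 encodes the Gβ subunit of the heterotrimeric G protein. Gβ forms a dimer with 1 of the small Gγ subunits, and together with the canonical Gα subunit or the extra-large Gα proteins it passes signals from receptors at the plasma membrane. Plants that lack it are known for altered root branching, changed responses to abscisic acid (ABA) and for weaker defence. In an unstressed root, growth, nutrient uptake, oxygen supply and basal defence are all read out by well known sets of genes, and these sets order the results that follow.

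Each array gave a background-corrected intensity for 43803 spots. Between 74.1% and 76.1% of the spots were well above background and 0 were saturated. Values are given as the log2 signal, log2 intensity with the 75th percentile of that array subtracted, so that 0 marks this percentile, which lay between 2204 and 3305 on the 6 arrays at 0 h. A level can be compared between arrays for 1 gene but not between genes, since probes differ in brightness.

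The 3 agb1 arrays were not equally independent. Replicates 1 and 2 differed by a spread (scaled median absolute deviation) of 0.0865 log2 units over 19857 bright probes, with 95 probes apart by more than 1.5-fold. Replicate 3 differed from them by 0.439 and 0.438, with 4624 and 4659 such probes. The 3 pairs of WT arrays had spreads between 0.156 and 0.225. Repeated spots of 14 probes within these 2 agb1 arrays had a spread of 0.118, above that between the arrays, and the 6 brightest of those probes had 0.0768, slightly below it. WT replicates 1 and 3, and 2 and 3, also lay below their 14-probe value (0.156 against 0.217, and 0.225 against 0.232), and were kept apart. The 2 agb1 arrays differed by less than the sampling noise of repeated spots by the first measure, sit on different slides, and were averaged and counted as 1 sample. The comparison therefore rests on 2 agb1 samples and 3 WT samples, within a fit over 11 samples of all 4 groups. The values of agb1 below are always given for replicates 1, 2 and 3 in this order, and those of WT likewise.

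AGB1 itself was lower in agb1 roots. Its brighter probe gave log2 signals of 0.07, -0.10 and 0.63 in agb1, against 1.42, 1.64 and 1.46 in WT. The groups did not overlap, and the difference was -1.20 (SE 0.22, adjusted p = 0.0340). A dimmer probe gave -1.25, -1.30 and -0.78 in agb1 and -1.29, -0.92 and -2.22 in WT, and here the groups overlapped. The brighter probe therefore follows the labels, while signal remained on every agb1 array. AGB1 lost the adjusted call when any 1 WT array at 0 h, agb1 4 h replicate 3 or WT 4 h replicate 2 was left out (adjusted p up to 0.118). It also missed the adjusted threshold under 7 of 15 alternatives, among them the mean of both probes, with a difference of -0.37 (adjusted p = 0.428). Of the neighbouring loci, AT4G34450 and AT4G34480 differed by 0.18 and 0.20 and were not called. SK12 at AT4G34470, a SKP1-like gene, was higher by 2.11 (adjusted p = 0.0293), with values on the arrays close to those of SK11 at AT4G34210 (difference 2.18), a gene of the same family, and whether their probes share signal was not tested. All 12 genes of the G protein list (Gα, Gβ, Gγ, extra-large Gα, RGS1 and the NDL partners) had a negative difference, and only AGB1 was called. The list median was -0.23, and GP ALPHA 1, the canonical Gα, differed by -0.12.

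A gene was called when agb1 and WT differed by at least 2-fold with p below 0.05, among the 24662 genes whose spots were well above background on all arrays of 1 or both groups at 0 h. With limma p-values adjusted over all 25183 genes tested, 108 genes were higher in agb1 (0.438% of those 24662) and 231 were lower (0.937%). At the unadjusted threshold 712 were higher (2.89%) and 767 lower (3.11%). The study's legend names a 2-fold difference and P below 0.05, and does not say whether that P was adjusted. The median difference over all these genes was -0.0016. Of the genes called at an adjusted p, 91 of the higher and 196 of the lower ones were well above background on all 6 arrays. On no array of the lower group were 14 and 24 of them well above background. The groups overlapped for none of them, and at the unadjusted threshold 701 of 712 and 757 of 767 were apart. A call on these same arrays favours such a gap, and no share over all genes stands beside these counts. The median fold was 3.72 among the higher and 2.87 among the lower genes, and 51 and 62 genes exceeded 4-fold. Within each of the slides that held both genotypes at 0 h, 96 of the 108 and 188 of the 231 differed by at least 2-fold in the same direction. These slides hold arrays on which the genes were called, so this is no independent support. The adjusted counts depended on single arrays: without WT 0 h replicate 1, 2 or 3 they were 8, 14 and 11 higher and 33, 47 and 28 lower. They were 70 higher without agb1 0 h replicate 3, 185 and 69 without agb1 4 h replicates 1 and 2, and 211 higher and 349 lower without WT 4 h replicate 3. With the replicate number as a block among the 4 h samples, which pair by number, 536 were higher and 544 lower. With normexp background correction in place of the deposited one, 2 higher and 5 lower genes passed the adjusted p.

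**Figure D1:**
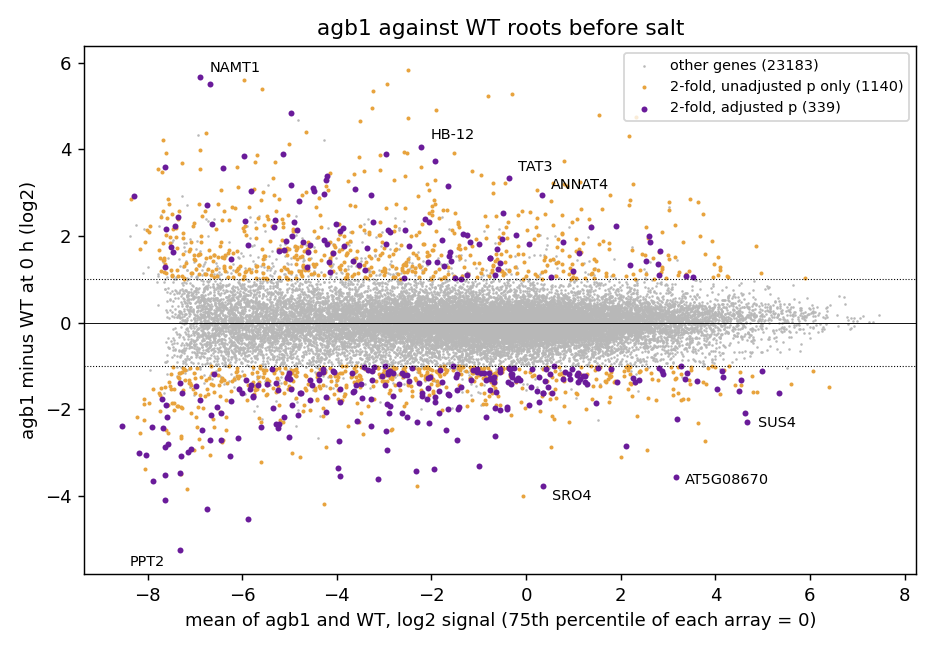
Difference between agb1 and WT roots at 0 h (log2, vertical axis) against the mean log2 signal of both groups (horizontal axis), one point per gene well above background. Purple points are the 339 genes called at an adjusted p, orange points those called only at the unadjusted p, and dotted lines mark 2-fold; called genes lie over the whole range of signal, and many of the largest differences are among dim genes.

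Genes were ranked among adjusted calls with a locus, well above background on all 6 arrays and without overlap between the groups. The 12 with the largest differences in the higher direction were HB-12, AT2G27535, AT4G22214, LCR85, TAT3, AT5G36130, CYP716A2, NAC019, AT5G53820, HAI1, ANNAT4 and OCT1. Called probes with no matched locus were not ranked, and the differences of A_84_P809649 (3.14), A_84_P786969 (3.11), A_84_P844756 (3.05) and A_84_P753508 (2.95) lay within the range of these 12. HB-12, a homeodomain-leucine zipper factor induced by drought and ABA, had log2 signals of 0.45, 0.51 and -0.85 in agb1, against -4.18, -4.03 and -4.54 in WT. This was a difference of 4.07 (SE 0.51, 16.8-fold, adjusted p = 0.0104). TAT3, a tyrosine aminotransferase that responds to jasmonate, had 1.24, 1.31 and 1.34 in agb1, against -2.29, -1.76 and -2.03 in WT (difference 3.34, adjusted p = 0.0159). For both genes every agb1 array lay far above every WT array, and HB-12 was lowest of the agb1 arrays in replicate 3. ANNAT4, an annexin, a calcium-dependent membrane-binding protein, had 1.90, 1.84 and 1.77 in agb1 and -1.03, -1.36 and -1.01 in WT (difference 2.95, adjusted p = 0.0204). NAC019, a NAC factor of dehydration responses, had -1.75, -1.79 and -2.38 in agb1 and -4.97, -4.95 and -5.59 in WT (difference 3.09, adjusted p = 0.0384). HAI1, a type 2C phosphatase of the ABA pathway, had -2.72, -2.45 and -2.98 in agb1 and -5.50, -5.59 and -6.18 in WT (difference 2.97, adjusted p = 0.0168). These genes were dimmer than TAT3 or ANNAT4 in WT but were well above background there.

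Of the other 7 genes, 3 have a symbol. OCT1, a carrier of carnitine and organic cations, had -3.35, -3.45 and -3.39 in agb1 and -6.17, -6.18 and -6.26 in WT (difference 2.81). CYP716A2, a cytochrome P450 of triterpene oxidation, had -2.95, -2.79 and -3.90 in agb1 and -6.48, -6.80 and -6.40 in WT (difference 3.18), and its neighbour by locus number, AT5G36130, differed by 3.30. LCR85, a small cysteine-rich defensin-like peptide, had -2.42, -2.26 and -2.70 in agb1 and -6.28, -5.11 and -6.34 in WT (difference 3.39), and AT4G22214, near it in locus number, differed by 3.73. Both members of each of these pairs were called. AT2G27535 and AT5G53820 differed by 3.90 and 3.03. The adjusted p of these 7 genes lay between 0.0204 and 0.0473. Each of the 12 genes lost the adjusted call when some single array was left out, in each case at least 1 WT array at 0 h, with adjusted p-values up to 0.151 and a difference that stayed above 2.76. Under normexp, run with an offset of 50 intensity units, none of the 12 kept the call. The differences were then 2.37 for HB-12, 2.89 for TAT3, 2.67 for ANNAT4 and 0.85 for NAC019. They were 0.42 for HAI1, 0.50 for LCR85, 0.22 for CYP716A2 and 0.21 for OCT1.

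Some genes were seen in agb1 roots and were not well above background on any WT array, so that only a lower bound of the fold is given, from the mean over agb1 and the lowest signal well above background on the WT arrays. NAMT1, a nicotinate methyltransferase, had -2.75, -2.74 and -5.36 in agb1, against -9.50, -9.88 and -9.78 in WT, at least 11.4-fold higher (adjusted p = 0.0204). AT5G39110 had -4.78, -4.45 and -3.47 in agb1 and -7.78, -7.73 and -8.18 in WT, at least 11.5-fold higher (adjusted p = 0.0472). DPBF2, a bZIP factor of the ABI5 group known from embryos, had -3.98, -4.09 and -5.18 in agb1 and -8.75, -7.38 and -8.42 in WT, at least 7.38-fold higher (adjusted p = 0.0333). AT2G24800 was at least 4.38-fold higher (adjusted p = 0.0472). Agb1 replicate 3 was the lowest of the agb1 arrays for NAMT1 and DPBF2 and the highest for AT5G39110. With normexp the differences of AT5G39110, DPBF2 and AT2G24800 turned negative (-0.13, -0.78 and -1.10) and that of NAMT1 was 0.12, and all 4 lost the adjusted call without WT 0 h replicate 1, 2 or 3.

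With each of the 12 arrays left out in turn, 7 of the 108 higher genes kept the adjusted call, and those with a symbol were ECP63, ESE1 and HKT1. ECP63, a late embryogenesis abundant (LEA) protein, had -2.31, -2.30 and -2.76 in agb1 and -7.41, -6.93 and -7.81 in WT, where only 1 array was well above background (difference 4.85, adjusted p = 0.0060; 0.91 with normexp, adjusted p = 0.478). ESE1, an ERF factor induced by ethylene and salt, had -6.01, -5.41 and -5.99 in agb1 and -9.35, -9.63 and -9.32 in WT, where no array was well above background, at least 3.28-fold higher (adjusted p = 0.0049), and its difference was -1.19 with normexp. HKT1, the transporter that takes sodium back out of the xylem, had -0.28, -0.34 and -0.17 in agb1 and -2.16, -2.40 and -2.26 in WT (difference 2.03, SE 0.23, adjusted p = 0.0060; 1.56 with normexp, adjusted p = 0.0983). HKT1 was tight in both groups, and it was the only 1 of the 10 genes of the sodium and potassium transport list that was called. SOS1, the sodium exporter, and NHX1, the vacuolar sodium antiporter, differed by 0.21 and by less than 0.01 in size, and the list median was -0.19.

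Of the 12 genes with the largest differences in the lower direction, chosen in the same way, SRO4 and FHL have a symbol. The probes A_84_P849705 (-3.35), A_84_P849700 (-3.31), A_84_P753488 (-2.74) and A_84_P765523 (-2.49), with no matched locus, lay within their range and were not ranked. AT5G08670 had log2 signals of 1.18, 1.15 and 1.63 in agb1, against 5.02, 4.77 and 5.07 in WT, a difference of -3.56 (SE 0.20, adjusted p = 2.9e-04). SRO4, a small protein of the RCD1-like family, had -2.10, -1.82 and -1.08 in agb1 and 2.42, 2.17 and 2.14 in WT (difference -3.76, adjusted p = 0.0441). FHL, which carries phytochrome A into the nucleus, had -2.10, -2.15 and -1.82 in agb1 and 0.62, 0.57 and 0.74 in WT (difference -2.61, adjusted p = 0.0051). All agb1 arrays of these genes lay below all WT arrays, as their choice required. AT1G06135 had -5.07, -5.42 and -4.62 in agb1 and -1.37, -1.40 and -1.22 in WT (difference -3.61, adjusted p = 0.0104). AT2G17850 had -0.19, 0.03 and 1.44 in agb1 and 3.61, 3.54 and 3.46 in WT (difference -2.86, adjusted p = 0.0354), with replicate 3 nearest to WT. AT1G14550, whose locus number follows that of the peroxidase PER4, had -3.63, -4.18 and -3.36 in agb1 and -0.26, -0.58 and 0.08 in WT (difference -3.38, adjusted p = 0.0162). The other 6 loci were AT4G28811, AT3G01345, AT5G07570, AT1G09750, AT3G33528 and AT1G13480, with differences between -3.54 and -2.48. AT5G08670, FHL, AT3G01345 and AT3G33528 kept the adjusted call with each of the 12 arrays left out, and the other 8 lost it without WT 0 h replicate 1 and without replicate 3, among others. Under normexp AT5G08670 (-3.44), FHL (-2.50) and AT1G14550 (-3.02) kept the call, and the other 9 did not, with differences between -3.59 and -2.26.

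NAS3, a nicotianamine synthase (nicotianamine chelates iron and other metals for transport), was not well above background on any agb1 array. It had -8.42, -8.25 and -7.97 in agb1 and -3.75, -3.54 and -3.54 in WT, at least 16.8-fold lower (adjusted p = 0.0046). PPT2, a plastid carrier of phosphoenolpyruvate, had -9.76, -9.99 and -10.002 in agb1 and -4.83, -4.81 and -4.40 in WT, at least 8.03-fold lower (adjusted p = 0.0021). LCR67, a defensin-like peptide, had -8.45, -9.87 and -8.94 in agb1 and -4.13, -6.12 and -6.47 in WT, at least 4.32-fold lower (adjusted p = 0.0296). NAS3 and PPT2 were alike on the 3 arrays of each group, while LCR67 varied in WT. AT3G29790 was at least 4.28-fold lower (adjusted p = 2.9e-04). NAS3, PPT2 and AT3G29790 kept the adjusted call with each array left out, and LCR67 lost it without agb1 0 h replicate 3, WT 0 h replicate 2 or WT 0 h replicate 3; under normexp all 4 lost it, with differences between -2.62 and -2.38. Of the 231 lower genes, 28 kept the adjusted call with each array left out. Among them were WRKY11, a repressor of basal defence (difference -1.36), PGSIP8, a glycogenin-like glycosyltransferase (-1.66), and SKS2, a SKU5-like cell wall protein (-2.08).

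**Figure D2:**
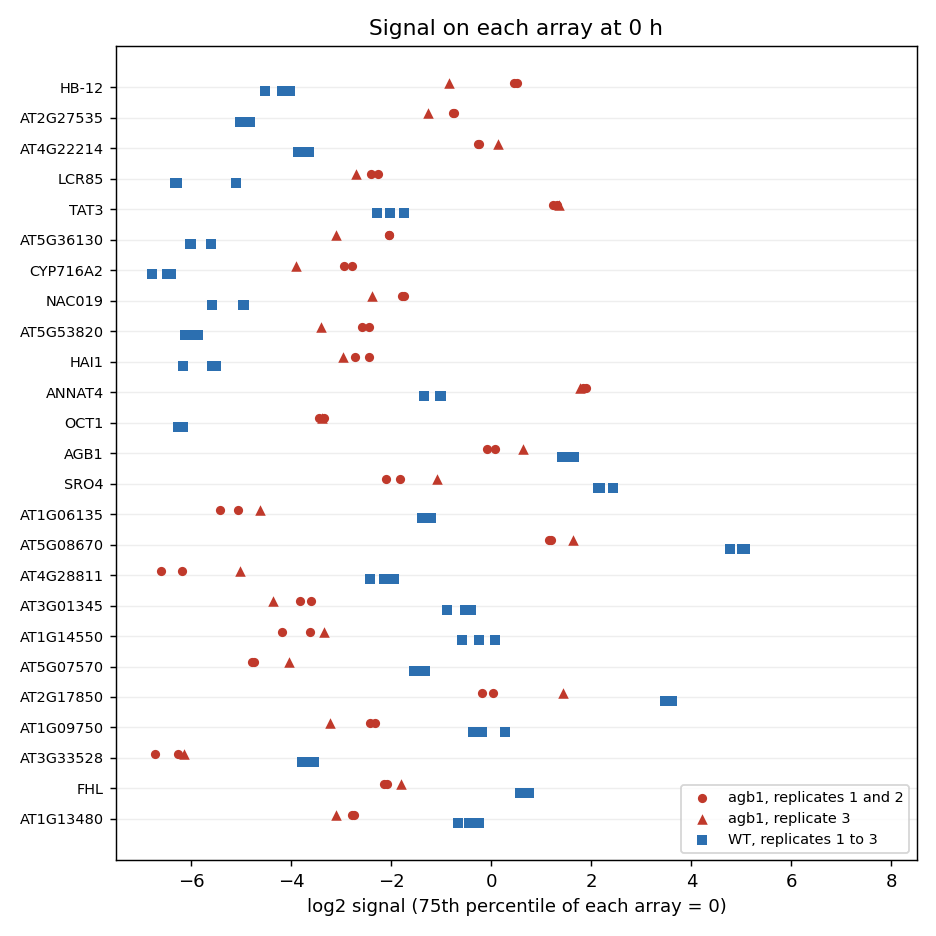
Log2 signal (horizontal axis, 0 = 75th percentile of the array) of AGB1 and of the 12 genes with a matched locus that had the largest differences in each direction, on each array at 0 h. Red circles are agb1 replicates 1 and 2, red triangles agb1 replicate 3 and blue squares the WT replicates. The groups do not overlap, which was a condition of choice for all genes shown but AGB1. Replicate 3 of agb1 often lies nearer to WT than the other 2 agb1 arrays.

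Of the ABA and dehydration genes 11 of 25 were called higher in agb1 at 0 h, against a background of 2.89% of all genes at the unadjusted threshold. This list and those that follow were drawn up with earlier results of these data known. Their shares describe the lists and are not an independent test. ABA builds up when water is short and, through its receptors, phosphatases and kinases, turns on factors and protective proteins. The list holds 29 genes. The ABA-responsive genes RD20, HAI2, LTP4 and COR15A were not well above background on all arrays of either group and were not counted. Of the 25 genes of this list that were well above background in a group, 11 were called higher and 0 lower at the unadjusted threshold, and the list median was 0.88. Of these 11, 5 passed the adjusted p, beside 0.438% of all genes. Beside HB-12, NAC019 and HAI1 these were NCED3, the enzyme that limits ABA synthesis, with -2.74, -2.82 and -3.14 in agb1 and -4.64, -4.63 and -4.96 in WT (difference 1.78, adjusted p = 0.0452), and GolS2, a galactinol synthase, with -1.30, -1.24 and -1.70 in agb1 and -3.23, -3.38 and -4.25 in WT (difference 2.14, adjusted p = 0.0445). Both genes were separated between the groups on every array. Called only at the unadjusted threshold were RD26, a NAC factor (1.93), the cold and ABA induced proteins KIN2 (1.88), KIN1 (1.59) and LTI78 (1.47), the LEA protein LEA7 (1.06) and AFP1, a binding partner of ABI5 (1.01). KIN2 had 5.96, 5.97 and 3.79 in agb1 and 2.98, 3.12 and 2.90 in WT, so that replicate 3 was far nearer to WT. KIN1 and KIN2 are close in sequence and are counted as 2 genes. RAB18, ABF3 and COR47, also responsive to ABA, differed by -0.10, -0.13 and 0.08 and were not called. The count of 0 lower holds for this list only. Outside it, the ABA kinase OST1 and receptor PYL6 were called lower and MAPKKK17 higher, as given under the other observations. The adjusted count of 5 fell to 0, 1 and 0 without WT 0 h replicates 1, 2 and 3, and with normexp 5 genes were called at the unadjusted threshold and the median was 0.42.

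Of the jasmonate genes 8 of 20 were called higher. Jasmonate is made from fatty acids by lipoxygenases (LOX), AOS, AOC and OPR3, and frees the factor MYC2 from the JAZ repressors, whose own genes it turns on. All 20 genes of the list had a positive difference, with a median of 1.13, and 8 were called higher and 0 lower at the unadjusted threshold. The 8 are 40%, beside 2.89% of all genes, and 2 passed the adjusted p, beside 0.438% of all genes. LOX3 had -0.20, -0.10 and -1.73 in agb1 and -3.58, -3.04 and -3.35 in WT (difference 2.38, adjusted p = 0.0291), and the repressor JAZ5 had 0.19, 0.25 and -0.40 in agb1 and -1.75, -2.09 and -1.86 in WT (difference 1.81, adjusted p = 0.0311). JAZ10, a repressor, had 2.28, 2.27 and 2.01 in agb1 and -0.26, -0.06 and -0.22 in WT (difference 2.32, adjusted p = 0.0534). VSP2, a storage protein used as a jasmonate marker, had 0.43, 0.37 and -1.95 in agb1 and -6.16, -5.38 and -5.66 in WT (difference 4.96, SE 1.40, adjusted p = 0.110). The groups were apart for each of these 4 genes, and VSP2 had the widest error. JAZ7 (2.05), JAZ8 (1.40), the jasmonate sulfotransferase ST2A (1.21) and LOX4 (1.06) were called at the unadjusted threshold only. Of the synthesis genes, OPR3 differed by 0.91 and AOS by 0.79, and MYC2 by 0.68, none of them called. AOC1 differed by 1.48, which was not called and came from replicate 3 alone (-4.73, -4.48 and -0.90 in agb1 and -4.52, -3.98 and -4.22 in WT). LOX3 and JAZ5 lost the adjusted call without any 1 of the WT arrays at 0 h and with normexp, under which the list median was 1.01 and 8 genes were called.

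The root triterpene clusters had a list median of 2.89. Thalianol and marneral are triterpenes that Arabidopsis roots make from neighbouring genes on chromosome 5. All 6 genes were called higher at the unadjusted threshold, and none passed the adjusted p (adjusted p between 0.130 and 0.229). THAS1, the thalianol synthase, had 3.25, 3.30 and 1.60 in agb1 and -0.81, -0.58 and -0.76 in WT (difference 3.15, SE 1.05). MRN1, the marneral synthase, had -0.27, -0.14 and -0.06 in agb1 and -4.91, -4.90 and -4.78 in WT (difference 4.73, SE 1.45). Replicates at 0 h were close for MRN1, and the SE pools the spread within all 4 groups, the arrays at 4 h included. The P450 enzymes CYP708A2 (3.46) and CYP705A5 (2.63) of the thalianol cluster and CYP71A16 (2.01) and CYP705A12 (1.88) of the marneral cluster were higher too. THAS1, CYP708A2, CYP705A5, CYP71A16 and CYP705A12 were all lower in replicate 3 than in the other agb1 arrays. Without 1 of the WT arrays at 0 h 5 of the 6 were called, and with normexp 4, with a median of 2.20.

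Of the genes of sulfate assimilation 10 of 22 were called higher (a list added after the values were seen). Sulfate is taken up by SULTR carriers, activated by ATP sulfurylases (APS) and reduced by APS reductases (APR), and the LSU genes rise when sulfur is low. Of 22 genes, 10 were called higher and 0 lower at the unadjusted threshold, 5 of them at the adjusted p, and the median was 0.96. Over all genes 2.89% were called higher, and 0.438% at the adjusted p. APS3 had 1.74, 1.73 and 1.44 in agb1 and 0.35, 0.38 and 0.44 in WT (difference 1.20, SE 0.14, adjusted p = 0.0075). APR1 had 3.30, 3.34 and 3.62 in agb1 and 2.16, 2.15 and 2.04 in WT (difference 1.35, adjusted p = 0.0312), and LSU1 had 0.12, 0.14 and 0.79 in agb1 and -1.08, -1.49 and -1.82 in WT (difference 1.93, adjusted p = 0.0225). These 3 genes stood apart on every array, and here agb1 replicate 3 was no nearer to WT for APR1 and LSU1. APS1 (1.11) and the vacuolar sulfate exporter SULTR4;2 (1.099) passed the adjusted p as well. The root-to-shoot carrier SULTR2;1 (3.29), LSU3 (2.14), LSU2 (1.70), LSU4 (1.59) and ATSDI1 (1.04) were called only at the unadjusted threshold. SULTR1;1 and SULTR1;2, the uptake carriers of the root surface, differed by -0.94 and -0.01 and were not called. The adjusted count was 1 without agb1 0 h replicate 3 and 0, 1 and 1 without WT 0 h replicates 1, 2 and 3, and with normexp the median was 0.56, with 7 genes called.

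**Figure D3:**
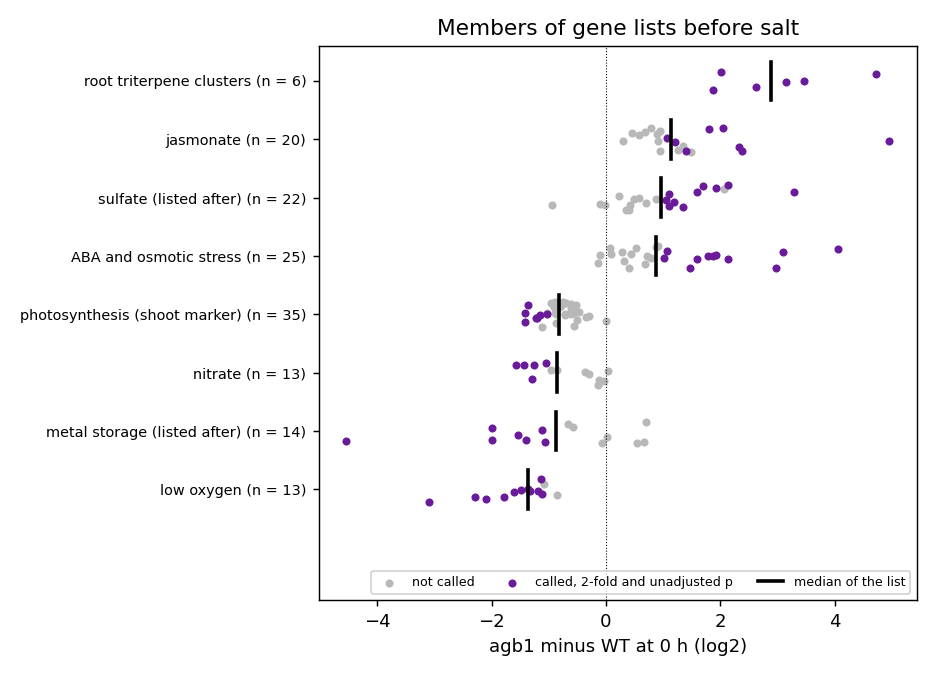
Difference between agb1 and WT at 0 h (log2, horizontal axis) of each member of 8 gene lists, with purple points for members called at 2-fold and an unadjusted p, grey points for the others and a black bar for the list median. The triterpene, jasmonate, sulfate and ABA lists lie to the right of 0 (medians 2.89 to 0.88), and the photosynthesis, nitrate, metal storage and low-oxygen lists to the left (medians -0.81 to -1.36).

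Of the low-oxygen genes 11 of 13 were called lower in agb1, against a background of 3.11% of all genes at the unadjusted threshold. They shift roots to sucrose synthase and ethanol fermentation when oxygen runs short, under ERF factors of group VII. All 13 genes of the list had a negative difference, 11 were called lower and 0 higher by the unadjusted p, and the median was -1.36. SUS4, a sucrose synthase, had 2.84, 2.86 and 4.19 in agb1 and 5.85, 5.63 and 5.94 in WT (difference -2.29, adjusted p = 0.0486). PDC1, the pyruvate decarboxylase of ethanol fermentation, had 2.97, 2.94 and 4.22 in agb1 and 5.70, 5.69 and 5.65 in WT (difference -2.09, adjusted p = 0.0464). The largest difference was that of NIP2;1, a channel for lactic acid, with -1.04, -0.45 and 1.68 in agb1 and 3.43, 3.80 and 3.46 in WT (difference -3.10, adjusted p = 0.0773). In all of these genes replicate 3 lay between the other agb1 arrays and WT. ADH1, alcohol dehydrogenase, had 5.09, 5.05 and 5.93 in agb1 and 6.76, 6.46 and 6.65 in WT (difference -1.12, adjusted p = 0.152), and HB1, a haemoglobin, differed by -1.49. The ERF factors ERF71 and ERF73 differed by -1.60 and -1.20, and SUS1 by -1.36. The remaining called loci were AT3G10040, AT5G15120 and AT5G39890 (-1.32, -1.13 and -1.78), and LBD41 (-1.09) and AlaAT1 (-0.85) were not called. The median of the list against the WT mean was -2.09, -2.02 and -0.93 on agb1 replicates 1, 2 and 3, while each WT array lay between -0.10 and 0.09 of the mean of the others. The adjusted count was 5 without agb1 replicate 3 and 0 without any 1 of the WT arrays at 0 h, and the unadjusted count stayed between 8 and 11.

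Of the genes of nitrate assimilation 5 of 13 were called lower. Nitrate is reduced by the nitrate reductases NIA1 and NIA2 and by nitrite reductase (NIR1), with a cofactor that needs UPM1 and with reducing power from G6PD3. Of 13 genes, 5 were called lower and 0 higher, 4 of them at the adjusted p, and the median was -0.85. Over all genes 3.11% were called lower, and 0.937% at the adjusted p. NIA2 had 3.50, 3.50 and 3.94 in agb1 and 5.46, 4.89 and 5.53 in WT (difference -1.57, adjusted p = 0.0295). NIR1 had 3.49, 3.45 and 3.58 in agb1 and 4.83, 4.63 and 4.90 in WT (difference -1.26, adjusted p = 0.0334), and UPM1 had 2.49, 2.56 and 2.90 in agb1 and 4.00, 3.83 and 4.19 in WT (difference -1.29, adjusted p = 0.0104). The groups were apart on all arrays for these 3 genes. G6PD3 (-1.05, adjusted p = 0.0159) and NIA1 (-1.43, adjusted p = 0.169) were the others called. The nitrate carriers NRT1.1 and NRT2:1 differed by -0.96 and -0.37, and the repressors LBD37, LBD38 and LBD39 by 0.04, -0.15 and -0.11, with no call among these 5. The adjusted count was 1 without agb1 replicate 3 and 0, 2 and 0 without WT 0 h replicates 1, 2 and 3. With normexp 4 genes were called at the unadjusted threshold and the median was -0.80.

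A list of metal storage genes was added after the values were seen. Of its 14 genes 7 were called lower (beside 3.11% of all genes) and 0 higher, 4 of them at the adjusted p (beside 0.937%). Beside NAS3 these were VTL1, a vacuolar iron transporter-like gene, with -2.66, -2.60 and -2.23 in agb1 and -0.53, -0.45 and -0.34 in WT (difference -1.99, adjusted p = 0.0159), VTL2 (-1.53, adjusted p = 0.0473) and NRAMP3, which releases iron from the vacuole (-1.07, adjusted p = 0.0159). NAS2 had -0.48, -0.72 and 1.12 in agb1 and 2.33, 2.11 and 2.33 in WT (difference -2.001, adjusted p = 0.166), and the iron store FER1 had 1.47, 1.42 and 1.58 in agb1 and 2.69, 2.45 and 2.76 in WT (difference -1.12, adjusted p = 0.0547). NAS2 was nearest to WT in replicate 3, whereas FER1 was even over the agb1 arrays. VTL5 differed by -1.39. The ferritins FER2 and FER4 (0.54 and 0.66) and NAS4 (0.71) had positive differences and were not called. The adjusted count was 2 without agb1 replicate 3 and 1 without any 1 of the WT arrays. In the list of iron uptake and homeostasis genes, which shares FER1 and NAS2 with this one, 2 of 23 were called, both lower. This is 8.7%, beside 3.11% of all genes. The iron list median of -0.97, -1.21 and -0.01 on agb1 replicates 1, 2 and 3 was near 0 in replicate 3.

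Nuclear photosynthesis genes served as a marker of shoot tissue in cut roots. All 35 were well above background on the arrays, 34 had a negative difference, 7 were lower by an unadjusted call and 0 by an adjusted one, and the median was -0.81. The 7 are 20%, beside 3.11% of all genes. Their summed signal, in units of the 75th percentile of the array, was 34.2 to 58.8 on the agb1 arrays and 74.99 to 88.7 on the WT arrays. CAB1, a light-harvesting protein, had 1.30, 1.05 and 1.83 in agb1 and 2.86, 3.13 and 2.75 in WT (difference -1.41, adjusted p = 0.139). The arrays were apart, again with replicate 3 nearest to WT. The other called genes were CAB2, CAB3, LHB1B1, LHB1B2, LHCA4 and PSAG (-1.42 to -1.03), of which CAB1, CAB2 and CAB3, like the 2 LHB1B genes, are near-identical copies whose probes can share signal. The count was 13 without agb1 replicate 3, 11 without WT 0 h replicate 3 and 12 with normexp. Roots also make these transcripts in light, so that fewer cells of a type and less RNA per cell cannot be told apart in this bulk RNA, and the part of this shift in the other results was not tested.

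Markers of root cell types were well above background in these samples, as the tissue label requires. Of the markers of root hairs (10 genes), endodermis (10), xylem (8) and phloem (4), none was called at either threshold. The summed signal in agb1 and WT was 34.5 to 35.9 against 46.1 to 51.7 for the endodermis, 14.6 to 14.9 against 18.0 to 19.4 for xylem and 2.87 to 3.57 against 2.16 to 2.28 for phloem, while for root hairs the ranges, 8.85 to 22.2 and 12.8 to 15.1, overlapped. Of 8 markers of the root cap and stem cells, 2 were called lower (25%, beside 3.11% of all genes), both NAC factors of the root cap. NAC070 had -1.17, -1.14 and -1.45 in agb1 and -0.01, -0.28 and 0.14 in WT (difference -1.26, adjusted p = 0.0232), and SMB had -2.60, -2.49 and -2.73 in agb1 and -1.70, -1.59 and -1.52 in WT (difference -1.03, adjusted p = 0.0540). Both were apart on all arrays, and the summed signal of the 8 genes was 2.76 to 3.67 in agb1 and 3.93 to 4.44 in WT.

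**Figure D4:**
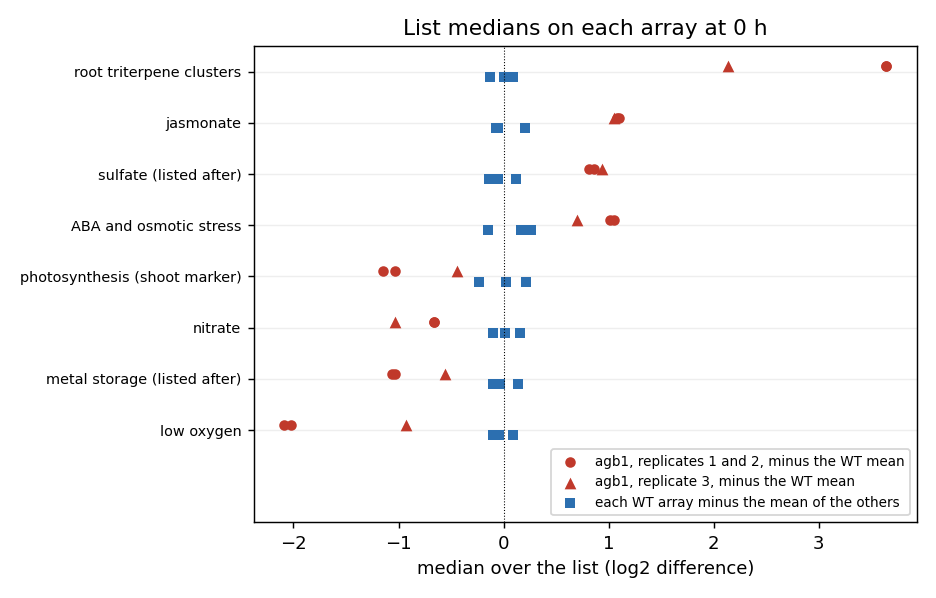
Median over each of 8 gene lists on each array at 0 h (log2 difference, horizontal axis), as agb1 replicates 1 and 2 (red circles) and agb1 replicate 3 (red triangles) minus the WT mean, and each WT array minus the mean of the other WT arrays (blue squares). Replicate 3 lies at -0.93 for the low-oxygen list and 2.14 for the triterpene list, between WT and the other agb1 arrays, but beyond them at -1.04 for nitrate.

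Among receptors and factors linked to defence, 18.4% of lectin receptor kinases and 8.47% of WRKY factors were called lower, beside 3.11% of all genes. Lectin receptor kinases sense damage and microbial molecules at the cell surface. Of 38 (a list added after the values were seen), 7 were called lower and 0 higher, 4 at the adjusted p: AT4G02410 (-1.29), AT3G45410 (-1.33), AT5G06740 (-1.48) and LECRKA4.2 (-1.44). AT5G06740 had -2.02, -2.04 and -2.21 in agb1 and -0.69, -0.63 and -0.59 in WT, and was among the tightest. Without agb1 0 h replicate 3, 5 were called lower and 3 higher and the adjusted count was 1 in each direction, and without any 1 of the WT arrays the adjusted count was 0. Of 59 WRKY factors, 5 were called lower and 2 higher (3.39%, near the 2.89% of all genes), with a median of -0.50. WRKY11 had 0.55, 0.33 and 0.38 in agb1 and 1.73, 1.78 and 1.81 in WT (adjusted p = 0.0045), and WRKY71, not well above background on any agb1 array, was at least 2.35-fold lower (adjusted p = 0.0153). WRKY27 (-1.48), WRKY9 (-1.11) and WRKY30 (-2.04) were lower, and WRKY24 (1.66) and WRKY56 (1.47) higher, at the unadjusted threshold only. Of 10 peroxidases, from a family the gene table names only in part, PER4 (-2.17, adjusted p = 0.0491) and AT5G64120 (-1.17, adjusted p = 0.0395) were called lower. Of the 25 pattern-triggered and salicylate immunity genes 1 was called higher, PR5 (1.71), and 1 lower, WRKY30. This is 4% in each direction, near the 2.89% and 3.11% of all genes.

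The other factor families had calls in both directions, which depended on the background correction and on single arrays. With normexp, 1 NAC factor was called higher and 3 lower (median -0.43), 0 MYB factors higher and 5 lower (median -0.40), and 2 ERF or DREB factors higher and 1 lower (median 0.01). Without any 1 of the WT arrays at 0 h, none of these 3 families kept an adjusted call. Of 77 NAC factors 9 were called higher (11.7%) and 3 lower (3.9%), with a median of -0.07. The shares of all genes were 2.89% and 3.11%. NAC103, which responds to stress of the endoplasmic reticulum, had -3.30, -3.07 and -3.41 in agb1 and -5.16, -5.01 and -5.18 in WT (difference 1.82, adjusted p = 0.0145), and it was the only 1 of 20 genes of the unfolded protein response list to be called. BZIP17, BZIP28 and BZIP60, the sensors and factors of that response, differed by -0.24, 0.05 and -0.36, and the chaperone BIP3 by -0.29, so that the called gene stood alone in its list. Of 86 MYB factors 7 were called higher (8.14%) and 3 lower (3.49%, near the share of all genes). MYB2, of dehydration, had -2.70, -2.55 and -3.09 in agb1 and -4.07, -4.10 and -4.38 in WT (difference 1.33, adjusted p = 0.0221). MYB94 (1.49) and MYB96 (1.501), which turn on wax synthesis, were called at the unadjusted threshold. Of 44 ERF and DREB factors 7 were called higher (15.9%) and 3 lower (6.82%). DREB1A, a cold-response factor, had -2.98, -2.96 and -2.79 in agb1 and -5.05, -5.21 and -5.21 in WT (difference 2.28, adjusted p = 0.0475). DREB1A, DDF1 and RRTF1 were the 3 higher and ZAT11, ZF1 and AT5G51190 the 3 lower genes among 26 rapid stress genes, which had a median under 0.01 in size. This is 11.5% in each direction, beside 2.89% and 3.11% of all genes.

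Among enzymes and carriers, 3 tau glutathione transferases, which couple glutathione to foreign or oxidised compounds, were higher. GSTU20 had 3.59, 3.57 and 3.63 in agb1 and 1.43, 1.51 and 1.87 in WT (difference 2.00, adjusted p = 0.0475), and GSTU6 and GSTU5 differed by 2.20 and 1.86 (adjusted p = 0.0293 each). GSTU11 and GSTU12 differed by -1.82 and -1.43 and were called lower at the unadjusted threshold, out of 36 family members. Of these 36, 8.33% were called higher and 5.56% lower at that threshold, beside 2.89% and 3.11% of all genes. Of 16 suberin genes, 3 were called higher (18.8%) and 0 lower at the unadjusted threshold, with 1 called under normexp. The 3 were FAR5 (2.22), CYP86A1 (1.82) and KCS2 (1.26), which make the fatty chains of this wall polymer. Of 13 indole glucosinolate genes, 2 were called higher (15.4%) at the unadjusted threshold. They were IGMT1 (1.33, adjusted p = 0.0400) and CYP81F4 (1.77, adjusted p = 0.159), which methylate and oxidise these defence compounds. Of 18 expansins, 28 XTH wall enzymes and 44 aquaporins, 2, 1 and 2 were called higher and 1, 0 and 1 lower, which for the XTH enzymes (3.57% higher) and aquaporins (4.55% higher) is near the 2.89% of all genes, NIP2;1 being the lower aquaporin. For the expansins the shares were 11.1% higher and 5.56% lower. Of 18 clock genes, LHY was called higher (1.72) and PRR5 lower (-1.92), both at the unadjusted threshold and each 5.56% of the list. RR16, a cytokinin response regulator, was at least 3.27-fold higher (adjusted p = 0.123), IAA6, an auxin-response repressor, was lower (-1.13, adjusted p = 0.0464), and SPX3, a phosphate-starvation gene, was higher (1.04, adjusted p = 0.169). The calmodulin-like AT1G76640 differed by 1.85 and was called at the unadjusted threshold. None of 13 heat shock, 30 cell cycle, 10 flavonoid and 16 laccase genes was called, with medians of 0.24, 0.28, -0.01 and -0.27.

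The arrays at 4 h, which are other samples, show whether these differences were there in salt too. Of the 108 genes higher at 0 h, 106 were also well above background in a group at 4 h, and 61 of them kept the sign. Of the 231 lower genes this held for 182 of 215. Kept signs were not counted over all genes, so these shares have no background beside them. Among them 16 of the higher and 34 of the lower genes were called at an adjusted p in the same direction at 4 h, and 3 and 1 in the opposite one. With the replicate number as a block among the 4 h samples these were 18 and 38, and 5 and 1, while the genes called at 4 h over all genes went up to 133 higher and 352 lower, against 85 and 230 without the block. The median difference of the higher genes was 1.90 at 0 h and 0.25 at 4 h, and that of the lower genes -1.52 and -0.45. All these genes had been chosen for their difference at 0 h, and such a choice by itself favours smaller differences on other arrays. Its part in the fall of the medians was not tested. Genes called in the same direction at both times included AT5G39110 (3.86 at 0 h and 3.53 at 4 h), AT1G70720 (2.33 and 2.35), TFL1, a repressor of flowering (2.14 and 1.96), and GSTU20 (2.00 and 1.83). Lower at both times were AT3G29790 (-4.10 and -3.78), AT1G06135 (-3.61 and -4.13), AT5G08670 (-3.56 and -2.69), PER4 (-2.17 and -2.56), the calcium-regulated kinase CIPK25 (-1.37 and -1.37) and the glutamate receptor-like GLR2.7 (-1.64 and -1.18). In contrast, HB-12 differed by -0.11, TAT3 by -0.34 and NCED3 by -0.81 at 4 h, none of them called. The list medians at 4 h were -0.44 for ABA, 0.05 for jasmonate, 0.08 for the triterpene clusters, 0.49 for sulfate, -0.50 for low oxygen, 0.01 for nitrate, 0.36 for metal storage, 0.23 for iron and 0.21 for photosynthesis, beside 0.05 over all genes.

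**Figure D5:**
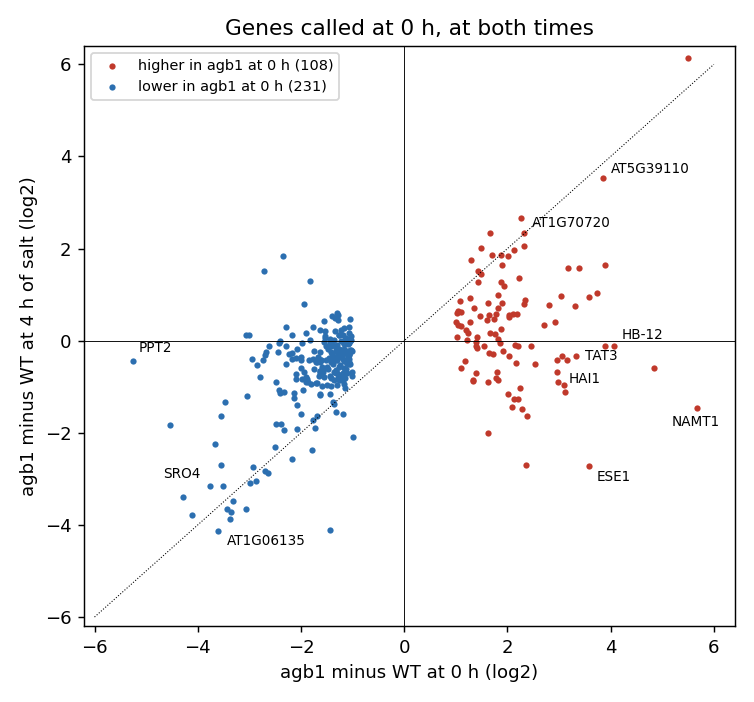
Difference between agb1 and WT (log2) at 0 h (horizontal axis) and at 4 h of salt (vertical axis) for the 108 genes called higher (red) and the 231 called lower (blue) at 0 h at an adjusted p. The dotted line marks equal differences; most points lie nearer to 0 at 4 h, with medians of 0.25 and -0.45. The genes were chosen by their difference at 0 h, which by itself favours smaller values at 4 h.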

How the data were processed

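RNA of agb1 and WT roots was hybridised to single-colour Agilent arrays. The values the authors deposited are spot tables from Feature Extraction (version 10.7.1.1 in the file headers, 9.1 in the submitters' processing notes), whose processed signal is an intensity corrected for background by the software and not scaled between arrays. The labels and the Methods name different RNA extraction and amplification kits. Here control and outlier spots (2 to 28 per array) were left out, spots of a probe were averaged, and log2 intensity minus the 75th percentile of the array was taken. A probe was kept if it was well above background on all arrays of some group, and the brightest of each locus was used. Through accessions, 34358 probes matched 25433 loci in RefSeq's gene table (assembly TAIR10.1), 20545 of the 25183 genes tested had a locus, and no coordinates are given, since the array annotation is older.

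In limma 3.58.1 (R 4.3.3) 4 group means were fitted to 11 samples (lmFit, eBayes), agb1 0 h replicates 1 and 2 being averaged, and the two-sided test of agb1 minus WT at 0 h was adjusted by Benjamini-Hochberg. The study states independent replicates; where replicates are not separate cultures, p-values measure only technical spread. The number of arrays limits the precision. Named were AGB1, 12 genes in each direction, up to 4 bounds in each, and called list members. The 12 had the largest differences among adjusted calls with a locus, well above background on all 6 arrays and without overlap between the groups. Same-numbered agb1 and WT arrays deviated together at 4 h (correlations 0.58, 0.35 and 0.37) but not at 0 h, and the labels give no source of a pairing. Members and 37 lists were chosen with earlier results of these data known; 3 lists were added after the values were seen, and 5 loci were left out as unnamed. Motifs in promoters were not analysed here. The fit was run on simulated data with independent noise of 1 spread per gene. These data held neither the gap of agb1 0 h replicate 3 nor the pairing at 4 h. There 13 unchanged genes were called at the adjusted p, a count that need not hold for the real arrays. Also run were 15 alternatives and leaving out each array.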

Additional observations from a re-analysis of the deposited data

Results flagged for a closer look

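For 10 of the named genes, agb1 minus WT at 4 h differed from agb1 minus WT at 0 h by limma's interaction test (adjusted over all genes). These genes had been chosen for their difference at 0 h.

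Higher in agb1 at 0 h and not at 4 h were ESE1 (3.58 at 0 h and -2.72 at 4 h, interaction -6.31, adjusted p = 0.0049), ECP63 (4.85 and -0.60, interaction -5.45, adjusted p = 0.0279), LOX3 (2.38 and -1.64, interaction -4.02, adjusted p = 0.0296), HAI1 (2.97 and -0.89, interaction -3.86, adjusted p = 0.0496) and MYB2 (1.33 and -0.87, interaction -2.20, adjusted p = 0.0234). ESE1 was not well above background on any WT array at 0 h and ECP63 on 1.

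Lower in agb1 at 0 h and closer to WT or above it at 4 h were PPT2 (-5.26 and -0.44, interaction 4.82, adjusted p = 0.0183), FHL (-2.61 and -0.12, interaction 2.50, adjusted p = 0.0466), UPM1 (-1.29 and 0.60, interaction 1.89, adjusted p = 0.0183), G6PD3 (-1.05 and 0.48, interaction 1.53, adjusted p = 0.0279) and PGSIP8 (-1.66 and -0.35, interaction 1.31, adjusted p = 0.0427). PPT2 was not well above background on any agb1 array at 0 h. UPM1 and G6PD3 both belong to the nitrate list. Of genes called at an adjusted p at 0 h, 10 of 108 higher and 17 of 231 lower ones passed the adjusted interaction threshold. The interaction contains the 0 h difference by which these genes were chosen, which favours passing. Passing genes were not counted over all genes, so no such count has a background beside it. With the replicate number as a block among the 4 h samples the counts were 48 and 53. With that block the 10 genes above kept an adjusted interaction p between 0.0038 and 0.0207.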

How the results depend on the processing

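Adjusted counts (108 higher and 231 lower) moved by over 1.5 times to 2 and 5 with normexp, 56 and 151 with no filter on dim probes, 462 and 581 with 12 arrays as 12 samples, 451 and 479 with the 0 h groups alone, 42 and 117 with array weights, 460 and 579 with the slide as a random block, 55 and 90 with it as a fixed block, and 27 and 97 with no moderation of variances. With the replicate block they were 386 and 506; same-numbered arrays correlated at -0.20 to -0.0033 at 0 h, where the numbers pair no samples, and at 0.35 to 0.58 at 4 h. A replicate block among the 4 h samples alone, added after seeing the data, gave 536 and 544. With normexp the unadjusted counts were 247 and 1452 and the median of all genes -0.24. Leaving out each array gave 8 to 211 higher and 28 to 349 lower genes at the adjusted p. Of 39 named genes, 23 to 26 lost the adjusted call without 1 of the WT arrays at 0 h. Quantile normalization, median centring, the percentile over detected probes, 2 stricter filters and the mean of probes left the counts within 1.5 times. With normexp AT5G39110 (-0.13), DPBF2 (-0.78), AT2G24800 (-1.10) and ESE1 (-1.19) changed sign, and none of the other 35 of these 39 genes did under any alternative or with any array left out; genes named only as list members were not run one by one. The cause of these shifts was not tested. Normexp was run with an offset of 50 only. Dim genes and 2 agb1 samples limit the precision.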

Other observations

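Not every gene of the ABA pathway was higher in agb1 at 0 h. OST1, a kinase activated by ABA, had log2 signals of -4.16, -4.30 and -3.10 in agb1, against -1.82, -2.31 and -1.82 in WT (difference -1.69, adjusted p = 0.0463), and PYL6, an ABA receptor, had -1.49, -1.61 and -1.21 in agb1 and 0.45, 0.72 and 0.53 in WT (difference -1.94, adjusted p = 0.0219). MAPKKK17, a kinase induced by ABA, had 0.84, 0.95 and 0.66 in agb1 and -1.68, -1.60 and -1.999 in WT (difference 2.53, adjusted p = 0.0179). These 3 genes are in no list above and were picked after their values were seen. The groups were apart for each of them.

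Single called genes of sugar and starch use, also picked after their values were seen, went both ways. TPPH, a trehalose phosphate phosphatase, and GolS2 were higher (1.02 and 2.14). HXK2, a hexokinase, had 0.39, 0.41 and 0.45 in agb1 and 1.54, 1.41 and 1.54 in WT (difference -1.07, adjusted p = 0.0141). GBSS1, a starch synthase, had -4.74, -4.79 and -4.18 in agb1 and -2.87, -2.92 and -2.80 in WT (difference -1.61, adjusted p = 0.0126). The invertase A/N-InvD differed by -1.16 and QQS, an orphan gene linked to starch content, by -2.18. HXK2 was even over the arrays of each group, and QQS was nearer to WT in replicate 3 (-6.92, -6.91 and -5.50 in agb1, against -4.02, -4.15 and -3.93 in WT).

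A probe with no matched locus (A_84_P796812) was called at both times (5.50 at 0 h and 6.14 at 4 h). It had -4.15, -4.37 and -3.61 in agb1 and -9.77, -9.79 and -8.75 in WT, where no array was well above background, at least 12.3-fold higher at 0 h (adjusted p = 6.2e-04).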
